A study of Homo sapiens with 8 samples.

Results

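The regions described are the H3K36me3 peaks on chromosomes 2, 14, 16, 17 and 20 of HepG2, a human hepatocellular carcinoma cell line. These are the whole chromosomes that its karyotype is reported to carry in 3 or more copies. All peaks of the control and knockdown lists on these chromosomes were taken, which gave 6694 of 35375 control peaks and 3661 of 23488 knockdown peaks. They were compared with the 26089 control and 18487 knockdown peaks of 16 other autosomes. Chromosome 6 was left out of the comparison because the rule for the regions sets it aside. The members were chosen by chromosome and not by the values of single peaks, though with earlier results of these data known.

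The study compared HepG2 cells infected with lentivirus for an shRNA against SETD2 with cells given a non-specific control shRNA. In both, the virus came from HEK293T cells and was added with polybrene, and infected cells were then selected with puromycin. Each condition had an H3K36me3 immunoprecipitate and input DNA, with 2 replicates per group and 8 libraries in all. Both replicates had been pooled before peaks were called, and the pools held 47880817 control and 67053273 knockdown immunoprecipitated tags after duplicate removal. With 1 peak list per condition no replicate spread and no test was to be had. Intervals of shares and of single peaks cover counting error only, and those of medians the spread between peaks. They take peaks as independent and leave out the error of the expected values. The labels do not say if the 2 replicates are separate cultures, and SETD2 itself was not measured in these files. Positions are in hg19.

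Trimethylation of histone H3 at lysine 36 (H3K36me3) is laid down across the bodies of transcribed genes by SETD2, which travels with elongating RNA polymerase II. SETD2 is the main enzyme for the trimethyl state in human cells, so depletion of it is known to lower the mark genome-wide. The mark helps to keep transcription from starting inside genes, recruits DNA methyltransferases and has roles in splicing and DNA repair. The 5 chromosomes hold well-known liver genes: APOB and CPS1 on chromosome 2, SERPINA1 and FOXA1 on 14, HP and TAT on 16, FASN, ACLY and APOH on 17, and HNF4A, FOXA2 and PCK1 on 20. They make, in that order, the main protein of low-density lipoprotein, a urea cycle enzyme, alpha-1 antitrypsin, a pioneer factor, haptoglobin, a tyrosine-degrading enzyme, 2 lipid synthesis enzymes, a phospholipid-binding plasma protein, a nuclear receptor of hepatocyte identity, another pioneer factor and an enzyme of glucose synthesis. No peak was given a gene, since an hg19 annotation was not used here. The labelled cell type was therefore not checked against its marker genes.

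An extra chromosome copy adds the same DNA to immunoprecipitate and input. Tags per kb therefore go up with copy number, while the fold enrichment over input, in principle, does not. The label was checked on that basis. For each chromosome, the median tag density (tags per kb per 1000000 filtered tags) was divided by that of comparison peaks in the same classes of fold enrichment and length, within each list. This ratio is called the relative density. It was not calibrated against measured copy numbers and is not one.

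Chromosome 20 stood highest in relative density. Its control peaks held a median of 1.53 tags per kb per 1000000, against 1.18 for matched comparison peaks, a ratio of 1.29 (95% interval 1.203 to 1.380). Its knockdown peaks held 1.22 against 0.962, a ratio of 1.26 (1.198 to 1.305). Chromosome 2 came next with 1.14 (1.13 to 1.16) in the control list and 1.11 (1.09 to 1.13) in the knockdown list. Chromosome 16 had 1.12 (1.08 to 1.14) and 1.09 (1.07 to 1.13), and chromosome 17 had 1.04 (1.02 to 1.07) and 1.04 (1.02 to 1.06). These 4 chromosomes lay above all 16 comparison autosomes in both lists, which ran from 0.972 to 1.015 in the control and from 0.991 to 1.014 in the knockdown. Chromosome 14 did not: at 1.005 (0.976 to 1.028) and 0.998 (0.977 to 1.018) it lay within both ranges. Over its whole length, chromosome 14 did not show the raised density of the other 4, which goes against its label as a whole extra chromosome, and extra-copy is used for it only as the karyotype gives it.

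**Figure D1:**
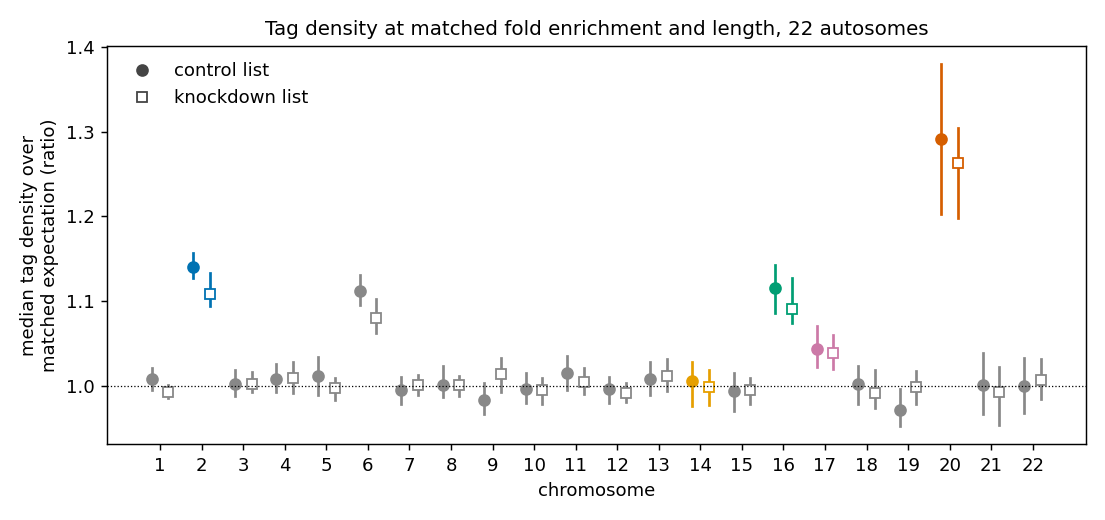
Relative density (median tag density over the matched expectation, a ratio) of peaks on the 22 autosomes in the control list (filled circles) and the knockdown list (open squares), with 95% intervals; extra-copy chromosomes are in colour and the others in grey. Chromosome 20 is highest in both lists at 1.29 and 1.26, chromosomes 2, 16 and 17 lie above the comparison autosomes, and chromosome 14 lies among them.

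Resolved into bins of 10 Mb, the relative density was uneven along 3 of the 5 chromosomes. Here each peak was divided by the median of comparison peaks of its class, and bins with at least 20 control peaks were kept. Of 203 such bins on the comparison autosomes, 2 reached a control value of 1.05 (0.985%), and the highest was 1.06. A bin at 1.05 or more is called raised and the others level, a limit chosen after the values were seen. On chromosome 20 all 7 bins were raised, from 1.16 to 1.37. On chromosome 2 the count was 24 of 25, and the exception was the last bin, from 240 to 250 Mb, at 1.03.

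Chromosome 17 divided into a level and a raised part, and 895 of its 1674 control peaks lay in level bins, at a median relative density of 0.999. For that part of chromosome 17 and the first bin of 16 the values go against a whole extra chromosome, as they do for most of 14. On chromosome 17 the first 4 bins, from 0 to 40 Mb, ran from 0.985 to 1.03. The next 4, from 40 to 80 Mb, ran from 1.08 to 1.15, and the last, with 68 peaks, was level at 1.04. In windows of 2 Mb the control value went from 1.02 between 36 and 38 Mb to 1.22 between 38 and 40 Mb, inside a level bin. The knockdown list changed over the same stretch, from 1.08 to 1.17. Chromosome 16 was level in its first bin at 0.995 and raised in the other 8, from 1.08 to 1.19. Within that first bin, the 2 Mb windows up to 6 Mb held 0.974 to 1.01 and the window from 8 to 10 Mb held 1.38, with 14 control peaks.

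Chromosome 14 carried the highest values of all, in a short stretch. Its bins from 20 to 30 Mb and from 30 to 40 Mb had control relative densities of 2.03 (1.72 to 2.29, 48 peaks) and 1.93 (1.61 to 2.41, 25 peaks). From 40 Mb on, its 7 bins ran from 0.966 to 1.02. The knockdown list held 1.402 and 1.770 in the raised bins, over 27 and 7 peaks. In 2 Mb windows both lists were alike between 22 and 24 Mb (2.21 in the control, 2.27 in the knockdown) and between 24 and 26 Mb (2.258 and 2.204). The knockdown values there rest on only 4 and 3 peaks. Between 20 and 22 Mb, with 20 knockdown peaks, the lists were apart, at 1.58 and 1.21. The 73 control peaks of the 2 raised bins are a small part of the 1087 on chromosome 14.

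Peaks on the chromosomes of raised density were also wider. The median control peak measured 7.23 kb on chromosome 20, 5.055 kb on 2, 4.52 kb on 17 and 4.47 kb on 16, all above the comparison range of 2.93 to 3.64 kb. Chromosome 14 lay inside that range at 3.46 kb. Median control fold enrichment was 4.27 on chromosome 2, below the lowest comparison autosome (4.57), and between 4.77 and 5.18 on the other 4. Wide peaks were not matched by a high number of peaks. Chromosome 20 had 484 control peaks for 537 protein-coding genes in the RefSeq table, or 0.901 per gene, below the comparison range of 1.07 to 3.12. The other 4 had 1.432 to 1.797 control peaks per gene. Of control peaks, 50.5% over the whole list had an FDR of 5% or less, and of the 23488 knockdown peaks 1244 did. On chromosome 20 the control share was 52.3%, against 59.4% expected at matched fold enrichment and length. On chromosome 2 it was 46.1% against 50.6%. Chromosomes 14 (51.1% against 50.9%), 16 (54.0% against 54.6%) and 17 (56.6% against 56.9%) were close to their expectations.

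The main comparison asked how many control peaks still had a peak in the knockdown list, at matched control fold enrichment and length. A control peak counts as kept when at least 1 bp of it lies under a knockdown peak. Tags outside called peaks were not given, so a control peak without a knockdown peak may still have carried the mark. Over the whole control list 39.5% of peaks were kept, and over the 16 comparison autosomes 42.3%. The expected share for a chromosome is that of comparison peaks in the same classes, 10 of fold enrichment by 5 of length. All 5 chromosomes kept fewer peaks than expected.

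Chromosome 20 kept 118 of 484 control peaks, or 24.4% (20.6 to 28.5%), against 52.8% expected, a gap of -28.4 percentage points. Chromosome 2 kept 603 of 2203, or 27.4% (25.5 to 29.3%), against 43.2%, a gap of -15.9. On chromosome 16, 417 of 1246 were kept, or 33.5% (30.9 to 36.2%), with 47.3% expected and a gap of -13.8. These 3 were the chromosomes with the highest relative density. Chromosome 14 kept 322 of 1087, or 29.6% (26.9 to 32.4%), against 42.2%, a gap of -12.55. Chromosome 17 kept 653 of 1674, or 39.0% (36.7 to 41.4%), against 47.9%, a gap of -8.90.

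Each comparison autosome, set against the other 15 in the same way, gave the spread between chromosomes. Their gaps ran from -9.61 on chromosome 4 and -8.43 on 18 to 5.76 on 5 and 11.3 on 1, with an SD of 5.61. Chromosomes 20, 2, 16 and 14 lay below the lowest of them. This was not particular to the 5, since chromosome 6, set aside here, did so too at -11.7. Chromosome 17 lay between chromosomes 4 and 18, and its gap was within the spread of the comparison autosomes. Peaks on chromosomes 2 and 20 are wider at a given fold enrichment, and matching on length raises their expected share. Matched on fold enrichment alone the gaps were -8.76 on chromosome 2 and -19.6 on 20, and chromosome 2 then lay inside the comparison range, whose lowest value was -8.86. With at least 50% of the control peak required to be covered, chromosomes 2 (-11.4) and 16 (-9.87) also lay inside the range, which then began at -11.6. With both lists at an FDR of 5% or less, the gaps shrank to -3.97 on chromosome 20, -3.63 on 14, -3.11 on 2, -2.15 on 17 and -1.96 on 16, and chromosome 16 then lay inside the comparison range, which began at -2.85. At that limit 1244 knockdown and 17856 control peaks were left, so few control peaks could be kept on any chromosome. Gaps in percentage points had to be small there, and their size cannot be set against that in the full lists. Chromosome 20 lay below all 16 comparison autosomes under each of the 17 settings computed.

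**Figure D2:**
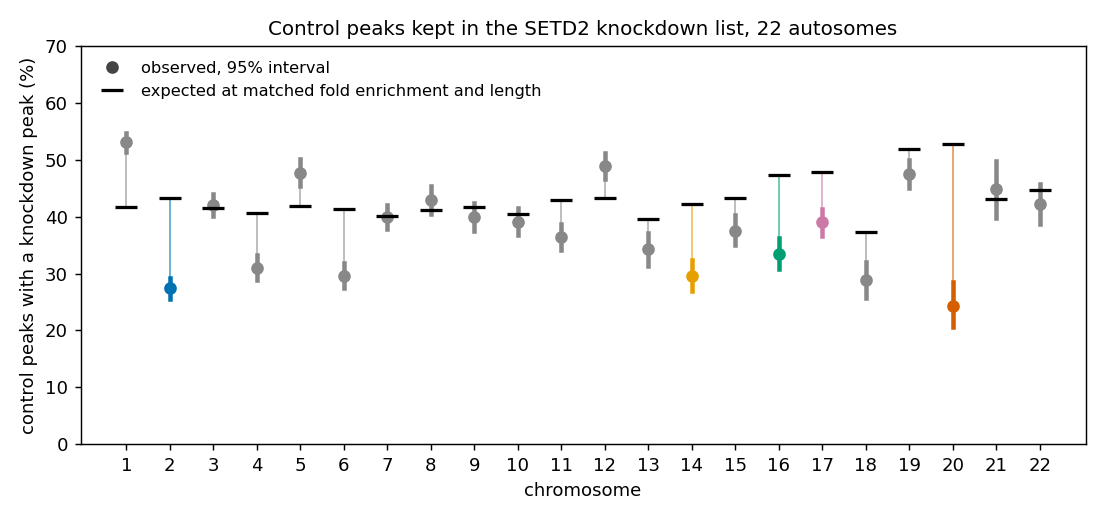
Share of control peaks with a knockdown peak (%) on the 22 autosomes, observed (circles, bars are exact 95% intervals) and expected at matched fold enrichment and length (black dashes); extra-copy chromosomes are in colour. Chromosome 20 shows the widest gap, 24.4% against 52.8%, and chromosome 1 lies above its expectation at 53.1%.

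Among weak and strong control peaks alike the 5 chromosomes kept smaller shares than the comparison autosomes, in some classes within counting error. At a fold enrichment under 3.44, 11.5% of comparison peaks were kept, against 3.39% on chromosome 2, 2.22% on 14, 1.70% on 16, 4.13% on 17 and 0.775% on 20. At a fold enrichment from 4.94 to 5.52 the comparison share was 33.5%. There chromosomes 17 at 33.3% (25.3 to 42.2%) and 2 at 28.4% (21.3 to 36.4%) differed from it within counting error. Chromosomes 14, 16 and 20 stood between 17.2% and 18.2%, and the interval of 20, with 29 peaks, reached 35.8%. From 6.33 to 7.83 the comparison autosomes kept 70.9%, and the 5 chromosomes kept from 44.2% on 20 to 60.2% on 17.

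At the top the chromosomes spread apart. Above the highest class limit, a fold enrichment of 10.7, the comparison autosomes kept 94.2% (93.2 to 95.1%). Chromosome 14 kept 82 of 91, or 90.1% (82.1 to 95.4%), an interval that included the comparison share. Chromosome 17 kept 84.5% of 238 (79.2 to 88.8%). On chromosome 16 the count was 136 of 171 (79.5%, 72.7 to 85.3%), and on chromosome 2 it was 144 of 188 (76.6%, 69.9 to 82.5%). Chromosome 20 kept 48 of 81, or 59.3% (47.8 to 70.1%). So 33 of its 81 strongest control peaks had no knockdown peak called over them, which does not show that the mark was lost there.

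**Figure D3:**
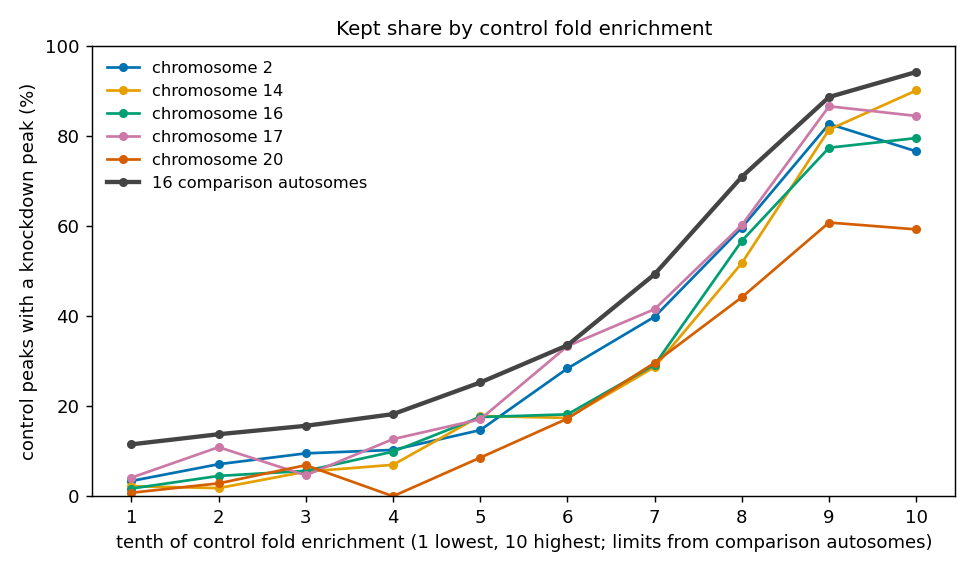
Share of control peaks with a knockdown peak (%) in 10 classes of control fold enrichment, for each of chromosomes 2, 14, 16, 17 and 20 and for the 16 comparison autosomes (black). All 5 lines run under the comparison line; chromosome 17 comes closest at 33.3% against 33.5%, and in the highest class chromosome 20 reaches 59.3% against 94.2%.

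Most strong control peaks that were not kept had very many tags. At a fold enrichment of 10.7 or more, chromosome 20 had 72 peaks of over 2000 tags, of which 40 were kept (55.6%, 43.4 to 67.3%), and 9 of 2000 or fewer, of which 8 were kept. Those over 2000 tags that were not kept had a median of 6248 tags. On chromosome 2 the shares were 71.7% of 138 peaks over 2000 tags and 90.0% of 50 at or under it, and on chromosome 16 they were 69.9% of 103 and 94.1% of 68. The comparison autosomes also kept fewer of their heavy peaks, 90.2% of 1173 against 97.5% of 1437. Among peaks over 5000 tags at any fold enrichment, 109 of 209 were kept on the 5 chromosomes (52.2%, 45.2 to 59.1%) and 186 of 236 on the comparison autosomes (78.8%, 73.0 to 83.8%).

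The 5 chromosomes held 30 of the 50 autosomal control peaks with the most tags, which all had 11223 tags or more, and 20 of those 30 had no knockdown peak. Over all 50 the share without a knockdown peak was 52.0%, and it held for 6 of the other 20. Among control peaks of 2000 tags or fewer, a limit chosen after the values were seen, the gaps were -26.2 on chromosome 20, -15.8 on 2, -13.1 on 16, -12.1 on 14 and -8.43 on 17, close to those of all peaks.

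On chromosomes 14, 16 and 17 the gap was wider in the raised bins. On chromosome 17 the raised bins kept 34.9% of 779 control peaks against 48.2% expected, a gap of -13.3, and the level bins kept 42.6% of 895 against 47.7%, a gap of -5.08. On chromosome 16 the gaps were -15.6 in the raised bins and -7.01 in the level bin. On chromosome 14 they were -38.7 in the raised bins (23 of 73 peaks kept, 70.2% expected) and -10.6 in the level bins (299 of 1013 kept, 40.1% expected). On chromosome 2 the single level bin, with 78 peaks, had a gap of -17.9, no narrower than the -15.8 of the raised bins. The 2 raised bins of the comparison autosomes went the other way, with 61 of 122 peaks kept and a gap of 8.55, against -0.03 in their level bins. Bins were sorted by control tag density and gaps come from knockdown calls on control peaks, so both rest in part on the same control tags.

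All 59 bins of the 5 chromosomes kept fewer peaks than expected, against 114 of 203 on the comparison autosomes (56.2%) and 66.0% of all 262 bins. The level bins among the 59 numbered 14, with 2241 control peaks and a gap of -8.25 in all. The narrowest gaps were on chromosome 2 from 30 to 40 Mb (-2.32, 41.8% of 110 peaks kept) and on chromosome 17 from 20 to 30 Mb (-3.21, 42.6% of 162). The widest were the 2 raised bins of chromosome 14, at -36.2 and -43.3, and the chromosome 20 bin from 20 to 30 Mb, at -31.7 with 37 peaks.

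**Figure D4:**
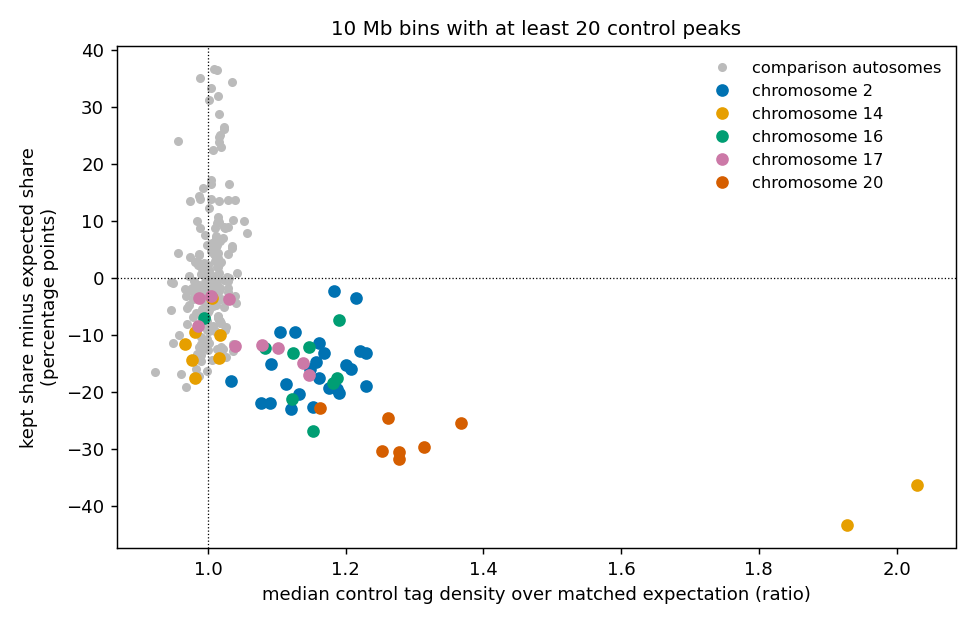
Each point is a 10 Mb bin with at least 20 control peaks: horizontally the median control tag density over the matched expectation (a ratio), vertically the kept share minus the expected share (percentage points). All 59 bins of the 5 chromosomes (coloured) lie below 0; the 2 at the far right are chromosome 14 from 20 to 40 Mb, at ratios of 2.03 and 1.93, and the bins of chromosome 20 lie between 1.16 and 1.37.

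Kept peaks were broken up less often than expected for their fold enrichment and length. Over the whole list 26.5% of kept control peaks lay under 2 or more separate knockdown peaks. On chromosome 20 that held for 15 of 118 kept peaks, or 12.7% (7.29 to 20.1%), where 45.7% was expected at matched fold enrichment and length. Chromosome 2 had 121 of 603, or 20.1% (16.9 to 23.5%), against 39.2% expected. On chromosomes 16, 14 and 17 the shares were 23.02% (19.1 to 27.4%), 24.53% (19.9 to 29.6%) and 30.0%, against 35.6%, 33.4% and 34.6%. Chromosome 17 thus lay above the share of the whole list, and the intervals of chromosomes 14 and 16 included it. The gaps of -32.9, -19.1, -12.6, -8.85 and -4.61 percentage points all lay outside those of the comparison autosomes, which ran from -2.47 to 2.78. This was not particular to the 5: chromosome 6, also of raised density, had 20.4% against 33.8%, a gap of -13.4.

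The tag density of peaks present in both lists was lower in the knockdown, and more so on these chromosomes. A pair is a control and a knockdown peak with a reciprocal overlap of 50% or more. Over all 7543 pairs 98.1% had the lower density in the knockdown. On chromosome 20 all 68 pairs did, and their median log2 ratio (knockdown to control) was -0.95 (-1.04 to -0.87). Chromosome 2 had -0.80 (-0.84 to -0.75, 315 pairs), chromosome 16 -0.77 (-0.83 to -0.70, 230 pairs), chromosome 14 -0.73 (-0.83 to -0.65, 132 pairs) and chromosome 17 -0.73 (-0.76 to -0.68, 341 pairs). The medians of the comparison autosomes lay between -0.71 (chromosome 18) and -0.46 (chromosome 1). The 5 chromosomes thus had the lowest medians, chromosomes 14 and 17 by less than the width of their intervals.

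The medians were also set against comparison pairs in the same classes of fold enrichment and length. The expectation was -0.71 for chromosome 20, -0.60 for 2, -0.66 for 16, -0.61 for 14 and -0.65 for 17. The differences from it were -0.24, -0.20, -0.11, -0.12 and -0.08. Chromosomes 20 and 2 lay below all comparison autosomes, whose differences ran from -0.13 to 0.08. Chromosomes 14, 16 and 17 lay within that range. A log2 ratio below -1 was found for 10.3% of all pairs, for 30 of the 68 pairs on chromosome 20 (44.1%), for 34 of 132 on 14 (25.8%), 76 of 315 on 2 (24.1%), 54 of 230 on 16 (23.5%) and 54 of 341 on 17 (15.8%). Singly, the comparison autosomes ran from 5.10% on chromosome 1 to 15.5% on 19, close to chromosome 17, and chromosome 6 had 16.7%. These shares were not matched for fold enrichment or length. In the raised bins of chromosome 14 the median log2 ratio was -1.05 (-1.24 to -0.99, 17 pairs), against -0.66 (-0.76 to -0.64, 115 pairs) in its level bins. On chromosome 16 the raised bins had -0.85 (-0.91 to -0.77) and the level bin -0.65 (-0.70 to -0.49). On chromosome 17 the values were -0.77 (-0.80 to -0.71) and -0.69 (-0.73 to -0.63), with overlapping intervals. Chromosome 2 went the other way, at -0.79 and -0.85, the latter over 14 pairs. These medians of bins were not matched for fold enrichment or length. Control peaks had medians of 7.16 fold and 10.87 kb in the raised bins of chromosome 14, and 4.8 fold and 3.23 kb in its level bins. Background was not subtracted, so these are ratios of raw densities.

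**Figure D5:**
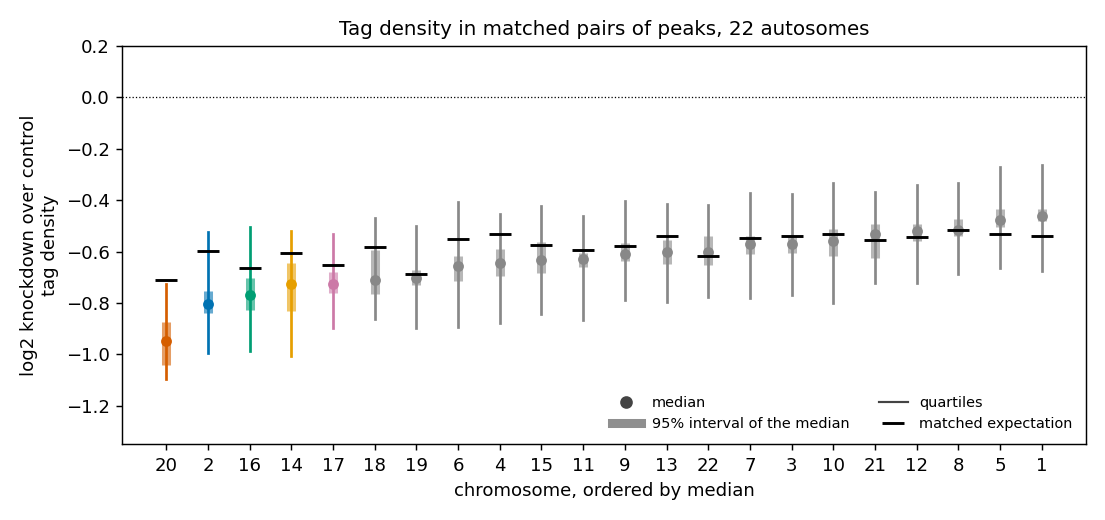
Log2 ratio of knockdown over control tag density in pairs of peaks with at least 50% reciprocal overlap, for the 22 autosomes in order of their medians: circles are medians, thick bars their 95% intervals, thin bars the quartiles and black dashes the matched expectation. The 5 extra-copy chromosomes (coloured) have the 5 lowest medians, from -0.95 on chromosome 20 to -0.73 on chromosome 17.

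Covered length fell on all 5 chromosomes. It went from 18.2 to 6.98 Mb on chromosome 2 (38.5% of the control length), from 6.90 to 2.44 Mb on 14 (35.4%), from 9.85 to 3.88 Mb on 16 (39.4%), from 12.6 to 5.93 Mb on 17 (47.1%) and from 5.55 to 1.63 Mb on 20 (29.4%). The comparison autosomes ran from 34.8% to 68.7%, and chromosome 20 alone lay outside their range. This order depended on the peaks admitted. With both lists at an FDR of 5% or less chromosome 14 was lowest (2.33%, comparison autosomes from 2.84%) and chromosome 20 lay inside the range at 4.96%. With both lists at a fold enrichment of 5 or more chromosomes 2 (10.97%) and 20 (11.7%) lay below the comparison autosomes, which began at 12.03%. Wide domains of 20 kb or more fell from 176 to 12 on chromosome 2, from 116 to 9 on 16, from 127 to 21 on 17, from 73 to 2 on 20 and from 58 to 4 on 14. The comparison autosomes together went from 1384 to 264, or 19.1% of the control number, and singly they ran from 4.60% to 35.7%. Chromosomes 2 (6.82%), 14 (6.90%), 16 (7.76%) and 17 (16.5%) lay inside that range and chromosome 20 (2.74%, from 2 domains) below it. The widest control domain of chromosome 2 measured 101 kb and the widest knockdown domain 31.5 kb.

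Knockdown peaks away from any control peak were frequent on chromosomes 20 and 2. They made up 17.0% of the whole knockdown list. On chromosome 20 they numbered 75 of 214, or 35.0% (28.7 to 41.8%), and on chromosome 2 they numbered 377 of 1133, or 33.3% (30.5 to 36.1%). The comparison autosomes ran from 2.44% on chromosome 19 to 25.5% on chromosome 5. At matched knockdown fold enrichment and length 16.6% and 17.1% were expected, which leaves 18.4 and 16.1 percentage points, above the comparison range of -12.5 to 10.1. Chromosomes 14 (15.2%), 16 (15.6%) and 17 (14.4%) were near their expectations of 16.6%, 15.9% and 15.9%. The knockdown peaks of chromosomes 20 and 2 were wide as well, with medians of 6.11 and 5.15 kb against 2.68 to 3.34 kb on the comparison autosomes. At a knockdown FDR up to 5%, 5.79% of the whole list lay away from control peaks. On chromosome 20 it was 0 of 15 (exact upper limit 21.8%), with 7.86% expected, which does not separate it from the expectation. On chromosome 2 it was 7 of 37 (18.9%, 7.96 to 35.2%), with 8.02% expected.

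Single peaks were named by rank. On each chromosome the 2 control and 2 knockdown peaks with the highest fold enrichment were named, with the highest of each list that had no peak in the other. Densities are in tags per kb per 1000000 with Poisson 95% intervals. Fold enrichment is the authors' value, and for this naming it served only to rank peaks within a list.

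On chromosome 20 the strongest control peaks lay close together near the start of the chromosome. At chr20:2438146-2451383 the density was 7.98 (7.76 to 8.20) in the control and 3.31 (3.18 to 3.45) in the knockdown peak over it. At chr20:2633094-2644931 it was 7.06 (6.84 to 7.28) and 3.13 (3.004 to 3.259). At both, the intervals of control and knockdown were far apart. The strongest control peak with no knockdown peak was chr20:10616721-10654281, 37.6 kb wide, with 14226 tags, a fold enrichment of 19.76 and a density of 7.91 (7.78 to 8.04). It lay in the 1 Mb window with the most control coverage among windows without knockdown coverage, at 80.7 kb. The knockdown peak ranked first, chr20:3834914-3847175, had 1.69 (1.605 to 1.784) against 3.62 (3.48 to 3.76) in the control. The next, chr20:62496641-62511240, had 2.13 against 5.10. The strongest knockdown peak away from control peaks was chr20:18503719-18519452, 15.7 kb wide at a density of 1.94 (1.86 to 2.03) and an FDR of 32.0%.

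Chromosome 2 had its strongest control peak at chr2:216223227-216301158. It spanned 77.9 kb with 38597 tags, a fold enrichment of 25.28 and a density of 10.3 (10.2 to 10.4), and no knockdown peak overlapped it. The control peak ranked next, chr2:201677105-201687148, was kept, at 7.79 (7.55 to 8.05) in the control and 2.92 (2.79 to 3.05) in the knockdown. The strongest knockdown peaks, chr2:128024354-128051288 and chr2:242278313-242294991, had 1.92 and 1.87, under control peaks of 4.01 and 5.18. Away from control peaks the strongest was chr2:86285746-86299288, with 1678 tags, a density of 1.85 (1.76 to 1.94) and an FDR of 6.06%. The window with the most control coverage, chr2:242000001-243000000, went from 415 to 137 kb.

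On chromosome 14 the strongest control peak, chr14:56078464-56153270, lay in a level bin and was broken up. Its 74.8 kb held 8170 tags at a density of 2.28 (2.23 to 2.33), and 9 knockdown peaks covered it with a joint density of 1.14 (1.11 to 1.17). Its score was 480.9 in spite of a fold enrichment of 31.35, while chr14:69253601-69259972, with 1399 tags and a fold enrichment of 23.65, had a score of 3100. That smaller peak had 4.58 (4.35 to 4.83) in the control and 2.358 (2.201 to 2.522) in the knockdown. The strongest control peak without a knockdown peak, chr14:21672055-21737830, lay in the raised stretch. It held 19952 tags over 65.8 kb, a density of 6.34 (6.25 to 6.42) at a fold enrichment of 18.7, with a score of 536.4. The strongest knockdown peaks, chr14:56078659-56089059 and chr14:89033377-89047245, each lay inside a wider control peak. The first had 1.83 (1.735 to 1.937) against 2.28 over the whole control peak. The strongest knockdown peak away from control peaks, chr14:68262921-68265760, held 177 tags at a density of 0.929 (0.798 to 1.077) and an FDR of 44.5%.

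On chromosome 16 the 2 strongest knockdown peaks lay close together and were near their control peaks in density. At chr16:87861577-87902800 the knockdown had 3.22 (3.16 to 3.29) and the control 3.79 (3.71 to 3.88), a log2 ratio of -0.24. At chr16:87772899-87799570 it had 1.91 (1.84 to 1.97) and 2.508 (2.422 to 2.597), a log2 ratio of -0.39. The strongest control peak, chr16:2803225-2826267 in the level bin, went from 5.09 (4.96 to 5.22) to 2.72 (2.64 to 2.81). Ranked next, chr16:70558398-70610182 had 19498 tags at a density of 7.86 (7.75 to 7.98) and no knockdown peak. Away from control peaks, chr16:48317472-48323360 was the strongest in the knockdown, with a density of 1.411 (1.296 to 1.533) and an FDR of 7.66%.

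Both of the strongest control peaks of chromosome 17 lay in its level part. At chr17:1553267-1587659 the density went from 5.10 (4.99 to 5.21) to 2.15 (2.09 to 2.22) over almost the same bounds, and that knockdown peak ranked next to the top of its own list. At chr17:1666654-1691639 it went from 2.690 (2.598 to 2.784) to 1.18 (1.11 to 1.25) over 3 knockdown peaks. In the raised part, chr17:63524428-63556810 had 10796 tags at a density of 6.96 (6.83 to 7.10) and no knockdown peak. The knockdown peak ranked first, chr17:78106257-78120921, had 2.73 (2.62 to 2.83) against 6.25 (6.06 to 6.44) in the control. The 1 Mb window with the most knockdown coverage, chr17:35000001-36000000, lay in the level part and kept 262 of 330 kb. Away from control peaks, chr17:8368528-8372377 was the strongest in the knockdown, at 1.12 (0.994 to 1.26) and an FDR of 17.1%.

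In 1 Mb windows the knockdown coverage was lowest on chromosome 20. For windows of 50 kb or more in the control, median knockdown coverage relative to it was 28.0% on chromosome 20 (quartiles 12.4 and 38.9%, 39 windows) and 35.2% on chromosome 2 (22.1 and 50.4%, 121 windows). Chromosomes 14, 16 and 17 had 33.8%, 38.2% and 45.4%, and the comparison autosomes together had 48.4% (33.9 and 64.5%, 1046 windows). Windows left with no knockdown coverage made up 0.803% of all such windows, and 8 of the 11 lay on the 5 chromosomes: 3 on 20, 3 on 2, 1 on 16 and 1 on 17. Windows with more coverage in the knockdown numbered 5 of 324 on the 5 chromosomes and 56 of 1046 on the comparison autosomes.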

How the data were processed

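Peaks of H3K36me3 were analysed from 2 deposited lists, 1 for the control and 1 for the SETD2 knockdown, each called by the authors on 2 pooled replicates against pooled input. Calling was done with MACS 1.4.2 at a p limit of 1e-05, per the file headers. Bowtie 1.1.2, FastQC 0.11.5 and build hg19 are named in the submitters' processing notes. Each deposited row gives a tag count, a score from the caller's p-value, a fold enrichment ratio and an FDR in percent. The deposited short lists held the same peaks as those with an FDR of 5% or less and were not used further.

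Tag density is the tag count per kb per 1000000 filtered tags. Expected shares and medians were standardised to comparison peaks in the same classes (10 of fold enrichment by 5 of length, for pairs 5 by 3), with class limits from the comparison autosomes. Intervals are Clopper-Pearson for shares, order-statistic for medians and Poisson for single peaks, at 95%. Those of medians cover the spread between peaks and the others counting error only, with peaks taken as independent. No p-value was computed. Peaks were named by fold enrichment rank on each chromosome (2 control, 2 knockdown, and the highest in each list without a counterpart). The members and lists were chosen with earlier results of these data known. The limit for raised bins and 5 alternatives were added after the values were seen. Scripts were tested on simulated data. An hg19 annotation was not used here, so no peak was given a gene. RefSeq (GRCh38.p14) served only for gene names, their chromosomes and gene counts. Python 3.11.15, pandas 2.3.3, NumPy 2.4.6, SciPy 1.17.1 and matplotlib 3.10.9 were used.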

Additional observations from a re-analysis of the deposited data

How the results depend on the processing

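No paired analysis was possible because each list was called on its replicates merged, and leaving out a replicate was not possible for the same reason. Of 204 alternative values, 150 stayed within the interval or limit set for the main value, 53 moved outside it and 1 changed sign. Among the 150, the pair values with all tags as depth could not differ, since that setting shifts every log2 ratio by the same amount. The gap in kept share stayed below 0 on all 5 chromosomes in every setting, but its size did not hold. With both lists at an FDR of 5% or less few knockdown peaks were left, so the gap could not be wide. It was then -3.11 on chromosome 2, -3.63 on 14, -1.96 on 16, -2.15 on 17 and -3.97 on 20. The comparison autosomes began at -2.85, and chromosomes 16 and 17 lay inside their range. With no matching chromosomes 14, 16 and 17 lay inside it, and chromosome 17 lay below it in 4 of the 17 settings. With control peaks alone at that FDR, chromosome 2 had -19.1. With 50% of the control peak covered, chromosomes 2, 16 and 20 had -11.4, -9.87 and -18.8. With both lists at a fold enrichment of 5 or more, 16 and 20 had -9.27 and -21.4. Matched on fold enrichment alone, 2 and 20 had -8.76 and -19.6. Matched on fold enrichment and tag density, 2, 16 and 20 had -21.1, -18.6 and -34.8. With no matching, 16, 17 and 20 had -8.81, -3.27 and -17.9. Chromosome 2 had -13.8 when chromosome 6 joined the comparison, and chromosome 16 had -17.1 more than 5 Mb from its outermost peaks. Of the alternatives added after the values were seen, matching on fold enrichment and tag number gave -19.3 on 2 and -33.5 on 20, and level bins alone gave -17.9 on 2, -7.01 on 16 and -5.08 on 17.

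The gap in the log2 ratio of pairs moved on chromosome 14 to -0.26 at 80% reciprocal overlap and -0.31 with both lists at an FDR of 5% or less. With no matching it was -0.25 on 2, -0.22 on 16, -0.17 on 17 and -0.39 on 20. Covered length in the knockdown, as a percent of the control, was 3.24, 2.33, 6.69, 7.04 and 4.96 on chromosomes 2, 14, 16, 17 and 20 with both lists at an FDR of 5% or less, and 10.97, 12.8, 17.7, 21.4 and 11.7 at a fold enrichment of 5 or more. Matched on fold enrichment alone, the control relative density was 1.23 on 2, 1.07 on 17 and 1.44 on 20, and that of the knockdown 1.22 on 2, 1.15 on 16, 1.07 on 17 and 1.41 on 20. With chromosome 6 in the comparison the control value of chromosome 2 was 1.12. At a knockdown FDR up to 5%, the gap in the share away from control peaks was 10.9 on 2, -7.36 on 14 and -4.57 on 16, and on 20 it changed sign to -7.86, over 15 peaks. Fewer peaks entered the settings with FDR or fold limits. The cause of the other shifts was not tested.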

Other observations

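Chromosome 6, which entered neither side of the comparison, had a relative density of 1.11 (1.095 to 1.130) in the control list and 1.08 (1.063 to 1.102) in the knockdown list. It kept 505 of 1704 control peaks, or 29.6% (27.5 to 31.9%), against 41.3% expected, a gap of -11.7 percentage points. Of its 876 knockdown peaks 25.8% (22.9 to 28.8%) lay away from control peaks, with 16.5% expected. Its median log2 ratio over 287 pairs was -0.66 (-0.72 to -0.62).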
